A study of Homo sapiens with 24 samples.

Results

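The 36 genes described here are the amino acid stress response genes of the transcription factor ATF4, chosen by symbol: regulators, enzymes of serine and other amino acid synthesis, and amino acid transporters. Each of the 36 symbols matched 1 identifier among the 60671 genes of each of 2 count tables. Polyadenylated RNA had been sequenced in 24 libraries, 3 in each of 8 groups, from H1 and H9, which are established human embryonic stem cell lines. The 18 H1 libraries carry the label doxycycline, controls included: a CARHSP1 knockdown and a nontargeting control in primed cells, a ZNF8 knockdown and a nontargeting control in naive cells, and a ZIC2 knockdown and a nontargeting control on day 2 of differentiation to ectoderm. The 6 H9 libraries are naive and primed cells with no treatment or genotype label. Primed cells resemble the epiblast after implantation, and naive cells the epiblast before it. The labels name StemFlex medium for every sample. How the naive state was induced, whether amino acid supply differed between states, how many guides or clones stand behind a knockdown, and whether the replicates were separate cultures are unstated, so the p-values reflect the scatter of these libraries alone, part or all of which may be technical.

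In the integrated stress response, kinases that sense amino acid shortage, misfolded protein, virus RNA or heme shortage phosphorylate the initiation factor eIF2, which lowers general protein synthesis while ATF4 is translated more. ATF4 then pairs with C/EBP-type factors on composite C/EBP-ATF response elements and switches on genes that import and make amino acids and charge tRNA. Because ATF4 is controlled in large part by translation, its mRNA is an incomplete readout of its protein, and neither ATF4 protein nor eIF2 phosphorylation was measured. In bulk RNA, a change in the number of cells of a type and a change in RNA per cell cannot be told apart.

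The composite element has the core TGATGNAA. It was searched on both strands of RefSeq promoter windows (GRCh38.p14, 250 bases before to 50 after each start), in which 28 of the 36 members had a match by symbol. The core was in the windows of 8 of these 28 members (28.6%), against 4.46% of 27305 symbols, and in 8 of 45 member windows (17.8%), against 3.62% of 35116 windows. It lay upstream of or at the window's start in ATF3, SLC1A4, ASNS, CHAC1, CEBPG and SLC1A5, and downstream of it in SLC3A2 and SLC7A1. Some members had several windows, and each position counts from the RefSeq start of the matched window. That start need not be the 5' end of the gene. Of the first 6, only the ATF3 core lay outside its gene's span in GENCODE 29. The other cores lay inside, that of SLC1A5 in a gene spanning 46774883 to 46788594. The windows of the first 6 genes are shown around the core, to show where the element's letters sit in members described below. The core is in capitals, and it reads on the opposite strand, as its reverse complement, in SLC1A4 and CHAC1. ATF3 is at chr1:212565176-212565263 (plus strand), with the core starting 191 bases before the start. SLC1A4 is at chr2:64989352-64989399 (plus strand), with the core from base −7 and over the start. ASNS is at chr7:97872429-97872516 (minus strand), with the core at −68. CHAC1 is at chr15:40953222-40953309 (plus strand), with the core at −209. CEBPG is at chr19:33374031-33374113 (plus strand), with the core at −42. SLC1A5 is at chr19:46784864-46784951 (minus strand), with the core at −97.
ATF3: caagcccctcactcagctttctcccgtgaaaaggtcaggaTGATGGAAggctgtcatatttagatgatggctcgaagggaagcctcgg
SLC1A4: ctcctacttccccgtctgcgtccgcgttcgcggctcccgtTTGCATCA
ASNS: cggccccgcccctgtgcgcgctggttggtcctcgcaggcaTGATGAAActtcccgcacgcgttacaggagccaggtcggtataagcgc
CHAC1: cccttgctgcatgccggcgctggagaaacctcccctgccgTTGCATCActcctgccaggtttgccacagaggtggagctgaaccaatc
CEBPG: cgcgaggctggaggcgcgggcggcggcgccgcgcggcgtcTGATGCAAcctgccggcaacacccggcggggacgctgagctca
SLC1A5: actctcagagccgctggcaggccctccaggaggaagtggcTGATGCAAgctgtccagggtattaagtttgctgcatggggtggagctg

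The first 40 bases of each line precede the core. No line runs beyond the start base, so the SLC1A4 line ends with its core and the CEBPG line is shorter after it. These matches describe letters in the windows, not binding. No window was matched for ALDH1L2, GPT2, NUPR1, PSPH, PYCR1, SHMT2, SLC7A11 or SLC7A3.

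Library depth ran between 6756704 and 20773963 counts, with 20732 to 25392 genes detected and 34 to 36 of the members. The targeted genes were read first. CARHSP1 averaged 19.5 ± 1.53 CPM in its knockdown and 152 ± 2.44 CPM in the control (SD, n = 3 each). ZIC2 averaged 272 ± 4.67 CPM in its knockdown and 566 ± 63.1 CPM in the control. ZNF8 averaged 15.4 ± 1.39 CPM in the libraries labelled ZNF8 knockdown and 19.1 ± 2.85 CPM in their control (log2 −0.32 ± 0.13 SE, adjusted p = 0.0664). This difference missed the threshold of 0.05, so the label is not backed by the ZNF8 counts at this depth. Targets also moved outside their own pairs. ZNF8 was lower in the CARHSP1 knockdown (log2 −0.29, adjusted p = 0.0379). CARHSP1 was lower with the ZNF8 label (log2 −0.25, adjusted p = 0.00281) and in the ZIC2 knockdown (log2 −0.20, adjusted p = 0.0215). ZIC2 was higher with the ZNF8 label (log2 0.80, adjusted p = 8.78e-06). ZIC2 in the CARHSP1 knockdown and ZNF8 in the ZIC2 knockdown did not pass (adjusted p = 0.234 and 0.654). Summed naive markers stood at 327 to 342 CPM in naive H1 controls and 35.8 to 41.0 CPM in primed H1 controls, and at 115 to 123 CPM in naive H9 cells and 24.1 to 29.6 CPM in primed H9 cells. KLF17, a defining naive marker, was at 0 in every primed group and below 1 CPM in naive H9 cells. Primed markers still summed to 1580 to 1688 CPM in naive H9 cells and 806.5 to 817.8 CPM in naive H1 controls. In primed cells they reached 4303 to 4365 CPM (H9) and 3154 to 3244 CPM (H1). Definitive endoderm and mesoderm genes summed to 125.5 to 144.6 CPM in naive H1 controls, against 4.15 to 5.19 CPM in primed H1 controls. SOX17 was at 0 and GATA6, FOXA2 and EOMES below 1 CPM in both. Early neural ectoderm markers reached 692 to 836 CPM in ectoderm controls, against 28.99 to 38.3 CPM in primed controls. In ectoderm controls HES5 was at 0 and LHX2 below 1 CPM. Core pluripotency genes summed to 5235 to 5563 CPM in ectoderm controls, above the 3874 to 4004 CPM of primed H1 controls.

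In what follows, a level in a comparison is CPM (counts per 1000000 counts, with TMM scaling), a value after ± is the SD over 3 libraries for a level and the SE for a log2 change, and adjusted p-values are from the quasi-likelihood test of edgeR, adjusted by Benjamini-Hochberg over all genes tested in a comparison. The test kept 34 members in the CARHSP1 comparison (not SLC1A4 and NUPR1), 34 in the ZNF8 comparison (not ASNS and NUPR1) and 35 in the ZIC2 comparison (not NUPR1), the others being too low.

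**Figure D1:**
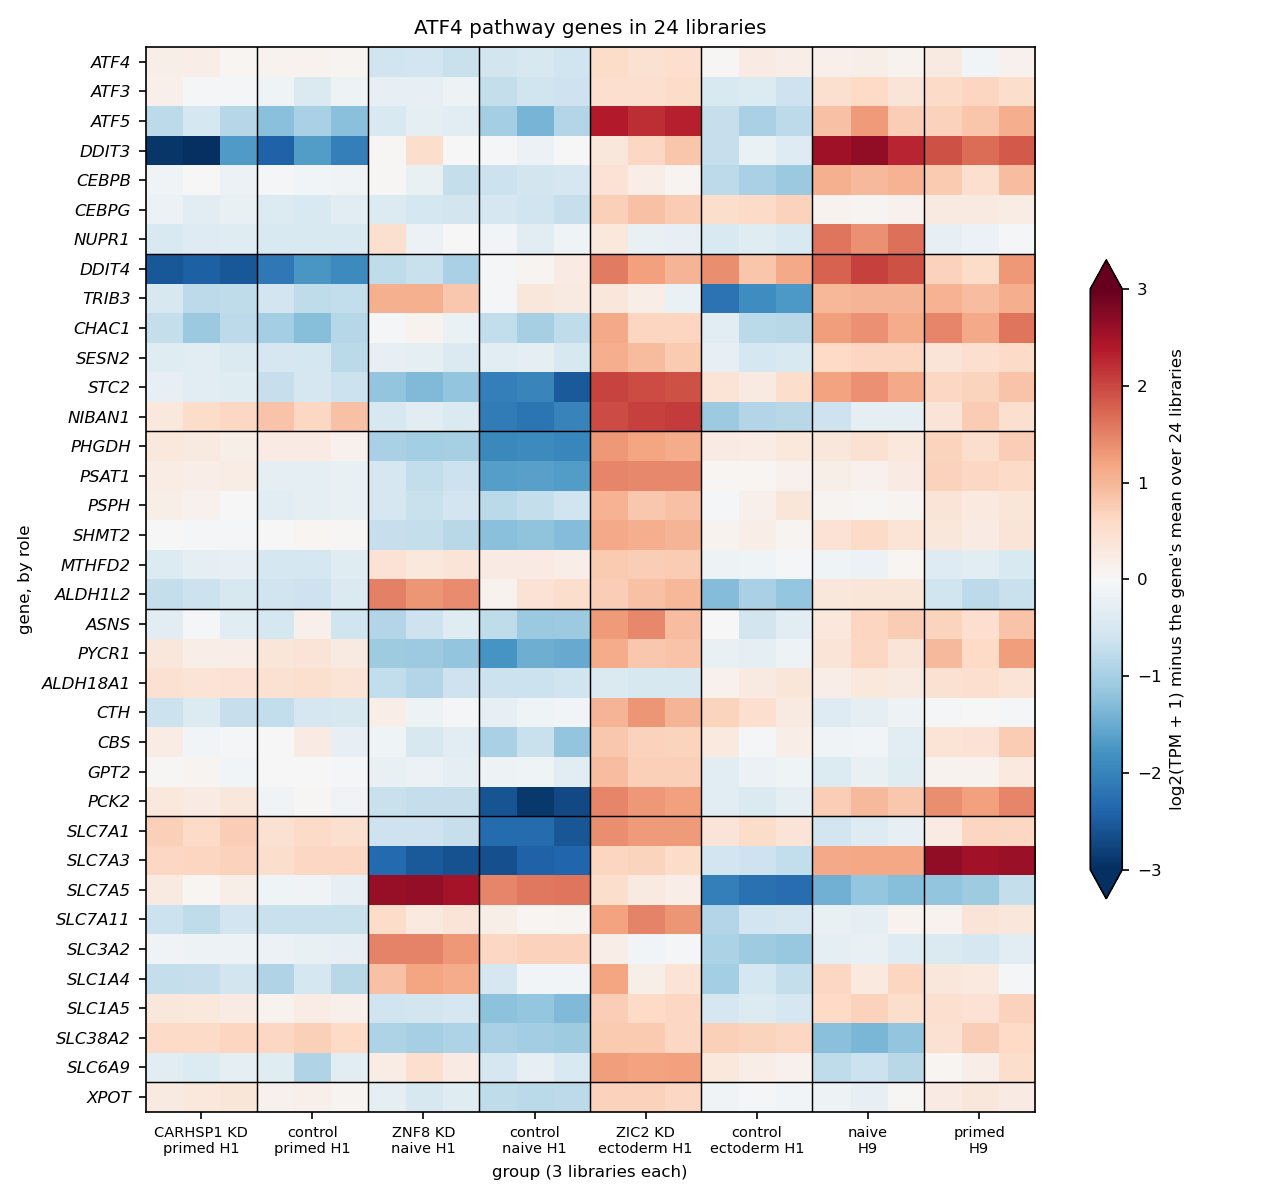
Each cell is log2(TPM + 1) of a member in 1 of the 24 libraries minus that member's mean over all libraries, red above and blue below it, with members grouped by role down the page and libraries by group across it (KD, knockdown). ZIC2 knockdown was the highest of the 8 groups for 21 members, and the naive H1 controls were the lowest for 15.

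The members were higher in all 3 knockdowns more often than lower, and most of all in the ZIC2 knockdown. There, 31 of 35 tested members rose and 1 fell, against 15.3% of all genes tested that rose and 12.8% that fell. In the libraries labelled ZNF8 knockdown, 22 of 34 rose and 1 fell, against 11.9% and 12.3% of all genes. In the CARHSP1 knockdown, 14 of 34 rose and 1 fell, against 10.3% and 9.87%. The median member log2 change was 1.06 with ZIC2, 0.564 with ZNF8 and 0.121 with CARHSP1, where the medians over all genes tested were −0.011, −0.00618 and −0.00217. At least 2-fold rises numbered 21 with ZIC2, where 3.8% of all genes rose as much, 9 with ZNF8 (1.42% of all genes) and 0 with CARHSP1 (0.409%). All members together held 0.678% to 0.722% of counts in the ZIC2 knockdown libraries, against 0.366% to 0.372% in their controls. That share was 0.598% to 0.636% in the libraries labelled ZNF8 knockdown, against 0.369% to 0.382%, and 0.503% to 0.512% in the CARHSP1 knockdown libraries, against 0.452% to 0.462%. These shares did not overlap between knockdown and control in any of the 3 pairs. A large part of the rise with the ZNF8 label was SLC7A5 alone, at 2583 ± 153 against 1215 ± 62.8 CPM.

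The 3 knockdown effects share no library. In all 3, 11 of the 33 members tested in each rose, against 0.767% of 13698 genes tested in each: the regulators ATF3 and ATF5, the enzymes PSAT1, MTHFD2 and PCK2, the transporters SLC7A1, SLC7A5, SLC3A2 and SLC1A5, the secreted glycoprotein STC2 and the tRNA exporter XPOT. The CARHSP1 calls of ATF3, ATF5 and SLC3A2 did not hold without single libraries, and those of the other 8 did. A further 12 of the 33 rose in 2 knockdowns, against 5.8% of the same genes, as did SLC1A4, tested only in those 2. DDIT4, SLC38A2 and ALDH18A1 rose in none, and the counts of NUPR1 were too low to test.

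**Figure D2:**
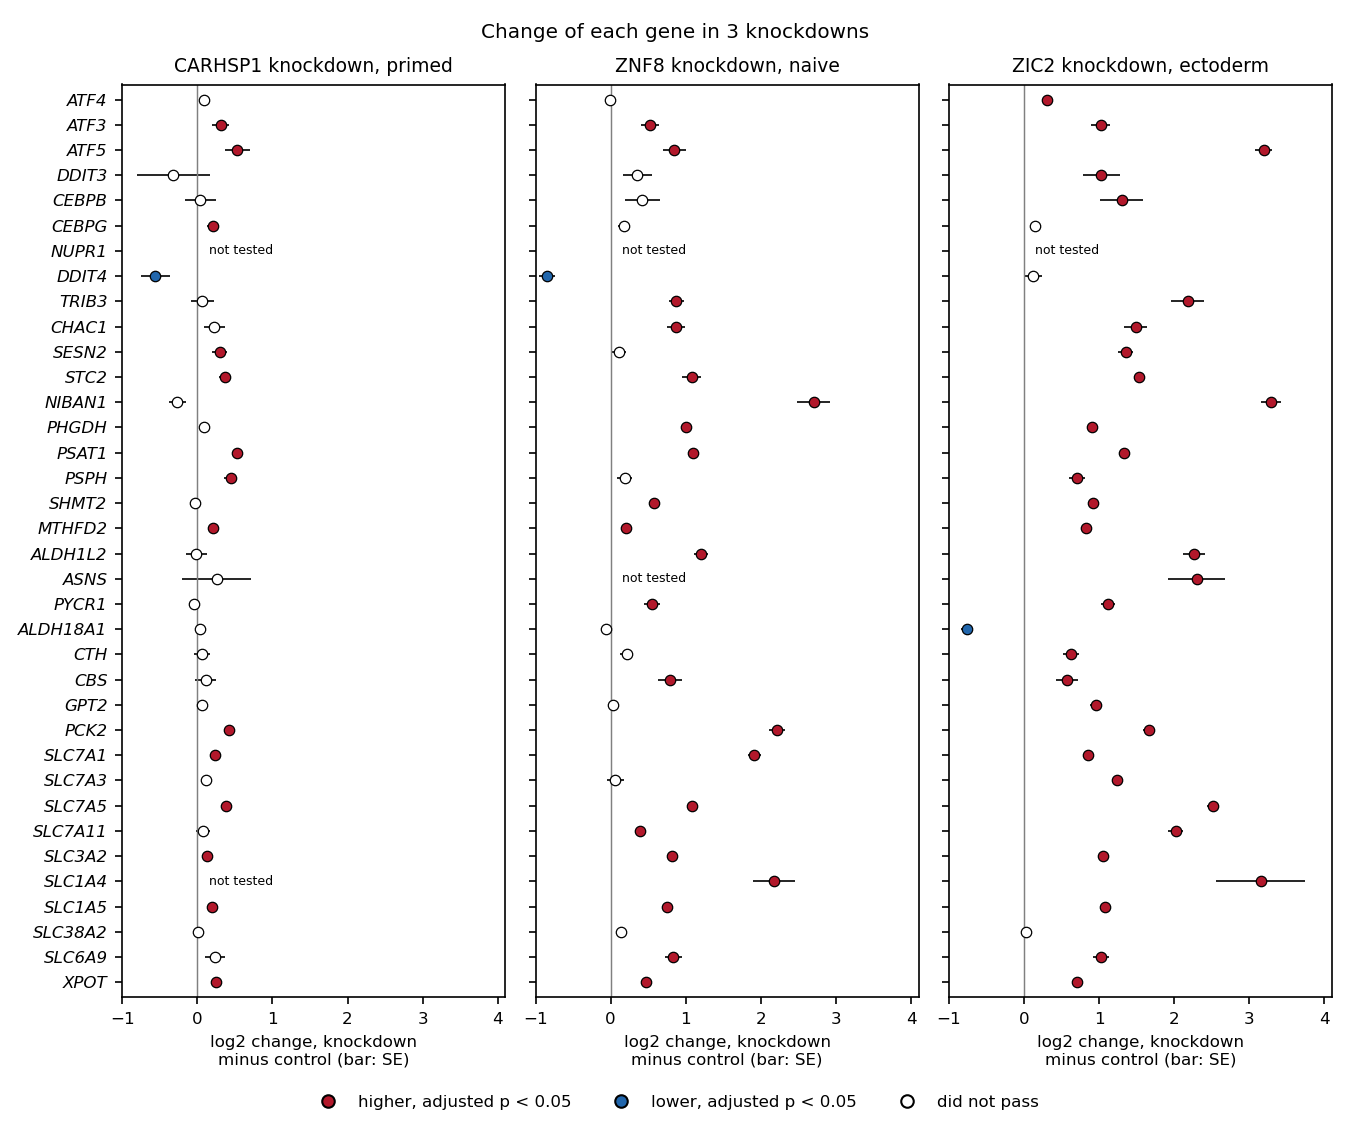
The log2 change of each member in the CARHSP1, ZNF8 and ZIC2 knockdowns against their own controls, 1 panel each, with bars of 1 SE. Red points are higher and blue ones lower at an adjusted p under 0.05, and open points did not pass. The ZIC2 points lie farthest to the right for most members, while DDIT4 lies left of 0 in the ZNF8 and CARHSP1 knockdowns and ALDH18A1 in the ZIC2 knockdown.

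In day 2 ectoderm with ZIC2 knocked down, members of every role rose. ATF5, a factor related to ATF4 that acts in mitochondrial stress, stood at 92.0, 82.5 and 92.1 CPM in the ZIC2 knockdown libraries, against 10.6, 8.69 and 10.02 CPM in their ectoderm controls (log2 3.19 ± 0.11, adjusted p = 4.03e-15). Each knockdown library was several times higher than every control library, and this was the second largest change of any member that passed, after NIBAN1. NUP62, on the strand opposite ATF5, averaged 123 ± 8.22 against 113 ± 7.87 CPM (log2 0.12 ± 0.07, adjusted p = 0.243). ATF3, a repressor and activator induced by ATF4, averaged 31.6 ± 1.13 against 15.6 ± 1.13 CPM (log2 1.02 ± 0.13, adjusted p = 2.71e-06). ATF4 itself changed less, at 448 ± 15.8 against 362 ± 30.2 CPM (log2 0.31 ± 0.06, adjusted p = 0.00109). Its bZIP partner CEBPB averaged 6.38 ± 0.767 against 2.61 ± 0.330 CPM (log2 1.30 ± 0.28, adjusted p = 0.00154), whereas CEBPG, at 106 ± 6.68 against 94.9 ± 6.62 CPM, did not pass (adjusted p = 0.154) except with GC and length trends taken out (0.0343). DDIT3, which encodes the stress factor CHOP, averaged 8.70 ± 1.68 against 4.21 ± 0.757 CPM (log2 1.03 ± 0.25, adjusted p = 0.00321). MARS1, which lies on the opposite strand over DDIT3 and is far more abundant, also rose, at 483 ± 13.7 against 263 ± 6.11 CPM (log2 0.88 ± 0.06, adjusted p = 1.2e-10); since whether strand was used in counting is unstated, the reads of such pairs cannot be told apart. NUPR1, a small stress-induced chromatin protein, averaged 0.468 ± 0.420 against 0.0333 ± 0.0576 CPM, too low to test.

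Effectors and feedback genes rose except DDIT4. NIBAN1, a stress-induced protein that modulates translation, stood at 56.7, 61.4 and 64.7 CPM in the ZIC2 knockdown libraries, against 5.17, 6.39 and 6.79 CPM in their ectoderm controls (log2 3.29 ± 0.13, adjusted p = 5.99e-14). STC2, a secreted glycoprotein of the stress response, had 250.2, 239 and 238 CPM in the ZIC2 knockdown libraries, against 82.6, 76.0 and 92.0 CPM in their ectoderm controls (log2 1.53 ± 0.07, adjusted p = 5.45e-13). The 2 groups were far apart for both genes, with little spread among the knockdown libraries. TRIB3, a pseudokinase that restrains ATF4, averaged 17.8 ± 3.23 against 3.84 ± 0.827 CPM (log2 2.18 ± 0.21, adjusted p = 7.35e-08). CHAC1, which degrades glutathione, averaged 42.9 ± 8.60 against 15.5 ± 3.04 CPM (log2 1.49 ± 0.15, adjusted p = 1.37e-07). SESN2, a leucine sensor that holds back mTOR complex 1, averaged 72.0 ± 6.23 against 28.3 ± 2.62 CPM (log2 1.35 ± 0.10, adjusted p = 1.24e-09). DDIT4, another brake on mTOR complex 1, had 88.0, 70.0 and 62.0 CPM in the ZIC2 knockdown libraries, against 81.0, 54.9 and 68.4 CPM in their ectoderm controls. These ranges overlapped, the test did not pass (log2 0.12 ± 0.12, adjusted p = 0.518), and the sign changed with the treatment of GC content and gene length.

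All 6 serine and one-carbon enzymes rose. PSAT1, which makes phosphoserine, stood at 809, 803 and 825 CPM in the ZIC2 knockdown libraries, against 315, 317 and 338 CPM in their ectoderm controls (log2 1.33 ± 0.06, adjusted p = 1.3e-13). Its libraries were close together within each group. PHGDH and PSPH, which stand before and after PSAT1 in serine synthesis, averaged 812 ± 41.4 against 434 ± 17.3 CPM (log2 0.90 ± 0.06) and 74.5 ± 6.04 against 45.3 ± 6.96 CPM (log2 0.70 ± 0.10). The mitochondrial folate enzymes SHMT2 and MTHFD2 averaged 509.5 ± 10.8 against 269 ± 11.4 CPM (log2 0.92 ± 0.06) and 447 ± 10.7 against 252 ± 13.3 CPM (log2 0.82 ± 0.06). The largest log2 change of the group was that of ALDH1L2, which oxidises formyl tetrahydrofolate in mitochondria, at 37.9 ± 4.29 against 7.82 ± 1.22 CPM (log2 2.26 ± 0.15, adjusted p = 1.56e-10). NOPCHAP1, opposite ALDH1L2, did not pass (30.7 ± 5.11 against 30.3 ± 1.21 CPM (log2 0.02 ± 0.13, adjusted p = 0.918)).

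Among the other enzymes, 6 rose and 1 fell. PCK2, the mitochondrial enzyme that makes phosphoenolpyruvate, stood at 172, 154 and 151 CPM in the ZIC2 knockdown libraries, against 50.6, 47.1 and 52.7 CPM in their ectoderm controls (log2 1.66 ± 0.08, adjusted p = 5.92e-13). GPT2, which makes alanine, averaged 141 ± 10.9 against 71.9 ± 5.61 CPM (log2 0.96 ± 0.08), and CTH, which makes cysteine, 76.7 ± 9.31 against 50.2 ± 6.32 CPM (log2 0.62 ± 0.10). CBS, the step before CTH, averaged 24.1 ± 1.11 against 16.2 ± 2.02 CPM (log2 0.57 ± 0.14), and its near-identical copy CBSL moved with it, at 20.8 ± 2.81 against 12.5 ± 2.51 CPM (log2 0.71 ± 0.17, adjusted p = 0.00269), so reads of this pair may have been split between them. The 2 proline genes went opposite ways. PYCR1, the last step of proline synthesis, averaged 100.1 ± 11.7 against 46.1 ± 2.10 CPM (log2 1.11 ± 0.09, adjusted p = 4.42e-09), while ALDH18A1, the first step, had 82.6, 80.7 and 82.1 CPM in the ZIC2 knockdown libraries, against 125, 139.7 and 151 CPM in their ectoderm controls (log2 −0.76 ± 0.08, adjusted p = 8.11e-08). ASNS, asparagine synthetase, averaged 5.28 ± 1.09 against 1.11 ± 0.469 CPM (log2 2.30 ± 0.38, adjusted p = 9.24e-05), from 174 reads in the knockdown libraries and 30 in the controls. ASNS was low in every group, and a transcript that overlaps it on the same strand held 28.3% as many counts, and whether this lowers the ASNS counts was not tested.

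Of the 9 transporters, 8 rose. SLC7A5, which carries large neutral amino acids, stood at 495, 417 and 410.4 CPM in the ZIC2 knockdown libraries, against 84.6, 74.5 and 72.8 CPM in their ectoderm controls (log2 2.52 ± 0.08, adjusted p = 6.79e-16). It had the smallest adjusted p of the members. SLC7A11, the cystine and glutamate exchanger, had 111, 135 and 123 CPM in the ZIC2 knockdown libraries, against 24.6, 31.7 and 33.4 CPM in their ectoderm controls (log2 2.02 ± 0.10, adjusted p = 1.96e-12). SLC7A3, a carrier of arginine and lysine, stood at 154, 159 and 149 CPM in the ZIC2 knockdown libraries, against 67.9, 67.0 and 61.7 CPM in their ectoderm controls (log2 1.24 ± 0.07, adjusted p = 1.82e-11). In these 3 genes the lowest knockdown library exceeded the highest control library by a wide margin. SLC3A2, the heavy chain that brings SLC7A5 and SLC7A11 to the membrane, averaged 275 ± 27.3 against 132 ± 7.96 CPM (log2 1.06 ± 0.07). SLC7A1, the other arginine carrier, averaged 238 ± 9.80 against 132 ± 8.63 CPM (log2 0.85 ± 0.07), and SLC1A5, which carries glutamine, 260.1 ± 12.2 against 123 ± 4.55 CPM (log2 1.08 ± 0.06). The glycine transporter SLC6A9 averaged 48.3 ± 1.45 against 23.9 ± 1.56 CPM (log2 1.02 ± 0.11). SLC1A4, which carries serine and alanine, averaged 3.76 ± 2.06 against 0.374 ± 0.352 CPM (log2 3.15 ± 0.59, adjusted p = 0.000352), a fold that was 1.55 times larger without ectoderm control replicate 2 and rests on few reads. SLC38A2, a sodium-coupled neutral transporter, averaged 496 ± 23.0 against 487 ± 9.27 CPM and did not pass (adjusted p = 0.764). XPOT, which exports tRNA from the nucleus, averaged 409 ± 4.72 against 250.1 ± 8.33 CPM (log2 0.71 ± 0.06, adjusted p = 3.85e-09).

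Other genes of the pathway, from lists that hold no member, were counted beside all genes tested, of which 15.3% rose and 12.8% fell. Of 9 tested further ATF4 targets 7 rose and 1 fell, among them INHBE, a secreted activin subunit, at 33.4 ± 1.04 against 6.75 ± 0.949 CPM (log2 2.33 ± 0.15, adjusted p = 1.03e-10), and EIF4EBP1, a repressor of translation initiation, at 120.1 ± 5.41 against 45.4 ± 1.55 CPM (log2 1.40 ± 0.08, adjusted p = 9.01e-12). VLDLR, a lipoprotein receptor, averaged 52.9 ± 3.67 against 15.8 ± 5.34 CPM (log2 1.71 ± 0.16, adjusted p = 2.98e-08). Of 20 cytosolic tRNA synthetases 13 rose and 2 fell, with WARS1 at 396 ± 1.97 against 162 ± 7.76 CPM (log2 1.29 ± 0.06, adjusted p = 5.45e-13) and GARS1 at 599 ± 15.5 against 300.3 ± 5.70 CPM (log2 1.00 ± 0.06, adjusted p = 1.07e-11). Of 13 further amino acid transporters 5 rose and 3 fell, and the sizes were large in both directions: SLC43A1, a neutral amino acid carrier, averaged 33.7 ± 6.41 against 11.9 ± 0.415 CPM (log2 1.50 ± 0.15, adjusted p = 9.71e-08), and SLC1A3, a glutamate carrier, 21.7 ± 2.11 against 51.0 ± 6.90 CPM (log2 −1.24 ± 0.12, adjusted p = 6.51e-08). The 10 eIF2 kinases and associated factors gave 3 rises and 1 fall, all small, such as GCN1, a partner of the kinase GCN2, at 228 ± 12.7 against 182 ± 3.23 CPM (log2 0.33 ± 0.06, adjusted p = 0.000413), and IMPACT, an inhibitor of GCN2, at 43.3 ± 3.53 against 55.9 ± 4.61 CPM (log2 −0.37 ± 0.10, adjusted p = 0.00747). Of 14 genes of the XBP1 and ATF6 branch 5 rose and 1 fell, and XBP1 averaged 118 ± 6.03 against 91.6 ± 8.29 CPM (log2 0.36 ± 0.08, adjusted p = 0.00122). Of 9 folate genes 2 rose and 1 fell, with the mitochondrial MTHFD1L at 118 ± 2.83 against 64.3 ± 3.66 CPM (log2 0.87 ± 0.07, adjusted p = 8.45e-09). The median log2 change was 1.20 for the further ATF4 targets, 0.446 for the synthetases, 0.142 for the further transporters, −0.0193 for the eIF2 list, 0.151 for the XBP1 and ATF6 branch and −0.0877 for the folate list, against −0.011 over all genes tested.

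Markers of cell state moved in the same libraries. Early neural ectoderm markers summed to 544 to 593 CPM in the ZIC2 knockdown libraries, against 692 to 836 CPM in controls, and core pluripotency genes to 4174 to 4344 CPM, against 5235 to 5563 CPM. The fibroblast list summed to 219 to 252 CPM, against 123 to 144 CPM, through COL1A1 and COL1A2 alone, since COL3A1, DCN, LUM and POSTN were at 0 in both groups. Trophoblast and amnion genes summed to 7.40 to 9.59 CPM, against 0.148 to 1.75 CPM, with HAND1 at 0 in both. The part of these shifts in the result was not tested. The counts of 31 and 1 were the same when any 1 of the 6 libraries was left out.

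In the libraries labelled ZNF8 knockdown, 7 of 9 transporters and 5 of 6 serine and one-carbon enzymes rose, and 2 of 6 tested regulators. ATF4 had 249.9, 268 and 247 CPM in the libraries labelled ZNF8 knockdown, against 257, 266 and 248 CPM in their naive controls. The libraries overlapped and ATF4 did not pass (log2 −0.01 ± 0.05, adjusted p = 0.904), and its sign changed with the filter and with single libraries. ATF3 averaged 23.1 ± 1.41 against 16.1 ± 0.571 CPM (log2 0.52 ± 0.12, adjusted p = 0.000766), and ATF5 16.6 ± 1.52 against 9.21 ± 1.81 CPM (log2 0.85 ± 0.15, adjusted p = 4.26e-05). NUP62, opposite ATF5, went the other way (105 ± 10.2 against 123 ± 4.04 CPM (log2 −0.23 ± 0.06, adjusted p = 0.00775)). DDIT3 at 8.09 ± 2.00 against 6.29 ± 0.471 CPM, CEBPB at 5.41 ± 1.38 against 4.11 ± 0.199 CPM and CEBPG at 53.1 ± 1.18 against 47.1 ± 3.11 CPM did not pass (adjusted p = 0.198, 0.197 and 0.119).

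Of the 6 effectors 4 rose and 1 fell. NIBAN1 stood at 10.6, 12.6 and 11.6 CPM in the libraries labelled ZNF8 knockdown, against 1.79, 1.504 and 2.05 CPM in their naive controls (log2 2.70 ± 0.22, adjusted p = 2.19e-12). This was the largest log2 change of a member here too, from a low control level. STC2 averaged 31.0 ± 1.46 against 14.6 ± 3.12 CPM (log2 1.08 ± 0.12), TRIB3 40.7 ± 3.99 against 22.3 ± 2.79 CPM (log2 0.88 ± 0.10) and CHAC1 29.1 ± 3.17 against 15.9 ± 1.73 CPM (log2 0.87 ± 0.12). SESN2, at 36.6 ± 2.20 against 34.0 ± 2.36 CPM, did not pass (adjusted p = 0.445). DDIT4 had 20.8, 23.5 and 18.8 CPM in the libraries labelled ZNF8 knockdown, against 34.1, 37.2 and 42.3 CPM in their naive controls (log2 −0.84 ± 0.11, adjusted p = 6.75e-08), the only fall among members in this comparison, with all knockdown libraries below all controls. DDIT4L, a relative of DDIT4, holds 19.5% as many counts.

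Of the 6 serine and one-carbon enzymes 5 rose. PSAT1 stood at 250.3, 224 and 240.1 CPM in the libraries labelled ZNF8 knockdown, against 112, 112 and 109.9 CPM in their naive controls (log2 1.10 ± 0.06, adjusted p = 1.32e-18). PHGDH had 213, 219 and 219 CPM in the libraries labelled ZNF8 knockdown, against 109, 108 and 106 CPM in their naive controls (log2 1.01 ± 0.05, adjusted p = 8.58e-18). ALDH1L2 stood at 72.5, 66.3 and 71.1 CPM in the libraries labelled ZNF8 knockdown, against 25.4, 31.8 and 34.6 CPM in their naive controls (log2 1.20 ± 0.09, adjusted p = 1.64e-13). For each of these 3 genes the knockdown libraries stood at about 2-fold the controls, with no overlap. SHMT2 averaged 178 ± 7.70 against 119 ± 3.65 CPM (log2 0.58 ± 0.06) and MTHFD2 423 ± 8.86 against 367 ± 5.49 CPM (log2 0.20 ± 0.05). PSPH, at 32.1 ± 1.04 against 28.3 ± 1.84 CPM, did not pass, although its libraries did not overlap.

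Among the other enzymes, PCK2 stood at 46.7, 47.5 and 47.0 CPM in the libraries labelled ZNF8 knockdown, against 11.4, 8.77 and 10.3 CPM in their naive controls (log2 2.21 ± 0.11, adjusted p = 7.61e-19), a 4.63-fold difference. CBS averaged 13.6 ± 1.44 against 7.82 ± 1.74 CPM (log2 0.79 ± 0.16), with CBSL at 10.8 ± 2.05 against 7.29 ± 0.983 CPM (log2 0.58 ± 0.18, adjusted p = 0.0121), and PYCR1 29.4 ± 1.08 against 20.2 ± 2.16 CPM (log2 0.55 ± 0.11). CTH at 42.9 ± 4.14 against 37.2 ± 2.13 CPM, GPT2 at 85.4 ± 4.74 against 83.2 ± 5.87 CPM and ALDH18A1 at 83.3 ± 7.59 against 86.8 ± 2.16 CPM did not pass. ASNS was too low to test, with 31 reads in the knockdown libraries and 8 in the controls.

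Of the 9 transporters 7 rose. SLC7A5 stood at 2545, 2752 and 2453 CPM in the libraries labelled ZNF8 knockdown, against 1147, 1228 and 1271 CPM in their naive controls (log2 1.09 ± 0.05, adjusted p = 3.89e-21). It carried the smallest adjusted p of the members, and its controls were already high. SLC7A1 had 72.5, 76.3 and 71.5 CPM in the libraries labelled ZNF8 knockdown, against 20.7, 20.5 and 17.0 CPM in their naive controls (log2 1.91 ± 0.09, adjusted p = 1.12e-19). SLC3A2 stood at 907, 954 and 839 CPM in the libraries labelled ZNF8 knockdown, against 494, 513 and 519 CPM in their naive controls (log2 0.82 ± 0.05, adjusted p = 8.26e-17). No library overlapped between groups in these 3. SLC1A5 averaged 141 ± 8.25 against 83.5 ± 4.28 CPM (log2 0.75 ± 0.06), SLC6A9 31.2 ± 4.37 against 17.4 ± 1.65 CPM (log2 0.84 ± 0.12), SLC7A11 78.5 ± 5.25 against 59.8 ± 3.27 CPM (log2 0.39 ± 0.07) and SLC1A4 6.91 ± 1.14 against 1.53 ± 0.546 CPM (log2 2.18 ± 0.28). SLC7A3, at 21.5 ± 1.71 against 20.8 ± 1.83 CPM, did not pass (adjusted p = 0.752). SLC38A2, at 190.2 ± 3.54 against 173 ± 6.89 CPM, missed the threshold (log2 0.14 ± 0.05, adjusted p = 0.0572) but passed without naive control replicate 1 (0.0397), with all groups in one fit (0.0382) and with GC and length trends taken out (0.00597). That last setting also brought CEBPG (0.0234), PSPH (0.0423) and CTH (0.0137) past the threshold, CTH also without ZNF8 knockdown replicate 2 (0.0418). XPOT averaged 244 ± 9.88 against 175 ± 4.505 CPM (log2 0.47 ± 0.05, adjusted p = 4.51e-09).

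Among genes that are no members, 12 of 20 tRNA synthetases rose and 1 fell, with GARS1 at 581 ± 18.7 against 418 ± 12.2 CPM (log2 0.48 ± 0.05, adjusted p = 2.34e-10) and YARS1 at 261 ± 4.97 against 189.5 ± 6.05 CPM (log2 0.46 ± 0.05, adjusted p = 4.16e-09). Of 7 tested further ATF4 targets 2 rose, JDP2, a bZIP repressor, at 19.2 ± 1.84 against 12.7 ± 0.407 CPM (log2 0.59 ± 0.13, adjusted p = 0.000701) and EIF4EBP1 at 64.0 ± 2.00 against 37.5 ± 3.30 CPM (log2 0.77 ± 0.08, adjusted p = 1.79e-09). The folate list gave 2 rises and 4 falls of 9 and the further transporters 2 rises and 4 falls of 13, with SLC7A8, another carrier of neutral amino acids, at 76.2 ± 2.15 against 118 ± 7.52 CPM (log2 −0.64 ± 0.06, adjusted p = 5.2e-10). Of the eIF2 kinases and associated factors 2 of 10 rose and 1 fell. The background for every list here is that 11.9% of all genes tested rose and 12.3% fell. None of 14 genes of the XBP1 and ATF6 branch passed with edgeR or with DESeq2, 2 had an unadjusted edgeR p under 0.05, and their log2 median was 0.0559 against −0.00618 over all genes. Naive markers summed to 229 to 234 CPM in these libraries, against 327 to 342 CPM in controls, trophoblast and amnion genes to 10.9 to 12.2 CPM, against 42.4 to 47.8 CPM, and the fibroblast list to 368 to 398 CPM, against 292 to 299.5 CPM, with COL3A1, DCN and LUM at 0 in the knockdown and below 1 CPM in controls. Primed markers summed lower too, at 722 to 751.6 CPM, against 806.5 to 817.8 CPM. Core pluripotency genes summed to 2466 to 2602 CPM, against 2806 to 2890 CPM. Early neural ectoderm markers reached 48.5 to 57.3 CPM, against 59.9 to 63.0 CPM. Definitive endoderm and mesoderm genes summed to 114.3 to 124.1 CPM, against 125.5 to 144.6 CPM. Their part in the result was not tested. Left out 1 at a time, the libraries gave 22 to 23 members higher and 1 lower.

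In primed cells with CARHSP1 knocked down, the rises were small and fewer. PSAT1 stood at 418, 423 and 419.7 CPM in the CARHSP1 knockdown libraries, against 290.5, 288 and 298 CPM in their primed controls (log2 0.52 ± 0.04, adjusted p = 7.02e-12). SLC7A5 had 508, 443 and 478 CPM in the CARHSP1 knockdown libraries, against 378, 376 and 345 CPM in their primed controls (log2 0.38 ± 0.05, adjusted p = 1.87e-07). PCK2 stood at 94.4, 91.7 and 96.6 CPM in the CARHSP1 knockdown libraries, against 68.7, 74.7 and 68.7 CPM in their primed controls (log2 0.42 ± 0.07, adjusted p = 8.6e-06). In each of these the lowest knockdown library still exceeded the highest control. XPOT had 373, 391 and 405 CPM in the CARHSP1 knockdown libraries, against 331, 334 and 318 CPM in their primed controls (log2 0.25 ± 0.05, adjusted p = 9.35e-05). PSPH stood at 53.6, 52.6 and 47.7 CPM in the CARHSP1 knockdown libraries, against 36.1, 37.4 and 39.5 CPM in their primed controls (log2 0.44 ± 0.08, adjusted p = 0.000159). STC2 had 61.8, 58.0 and 57.1 CPM in the CARHSP1 knockdown libraries, against 43.4, 49.4 and 44.7 CPM in their primed controls (log2 0.37 ± 0.08, adjusted p = 0.000676). These changes stayed small, and no member reached a 2-fold change. SLC7A1 stood at 187, 172 and 193 CPM in the CARHSP1 knockdown libraries, against 152, 165 and 155 CPM in their primed controls (log2 0.23 ± 0.05, adjusted p = 0.00215). MTHFD2 had 240.4, 263 and 270.4 CPM in the CARHSP1 knockdown libraries, against 214, 215 and 239 CPM in their primed controls (log2 0.21 ± 0.05, adjusted p = 0.00302). SLC1A5 averaged 249 ± 8.02 against 218 ± 7.86 CPM (log2 0.19 ± 0.05, adjusted p = 0.0041).

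Other members were near the threshold. ATF3 averaged 27.0 ± 1.87 against 21.6 ± 2.67 CPM (log2 0.31 ± 0.11, adjusted p = 0.0432), ATF5 12.4 ± 1.69 against 8.60 ± 1.04 CPM (log2 0.53 ± 0.17, adjusted p = 0.0182), CEBPG 62.3 ± 2.86 against 53.8 ± 2.54 CPM (log2 0.21 ± 0.07, adjusted p = 0.042), SESN2 34.6 ± 1.48 against 28.0 ± 3.21 CPM (log2 0.30 ± 0.10, adjusted p = 0.0285) and SLC3A2 299 ± 4.503 against 273 ± 7.38 CPM (log2 0.13 ± 0.05, adjusted p = 0.0368). DDIT4, the member that fell, had 5.71, 6.20 and 5.73 CPM in the CARHSP1 knockdown libraries, against 7.43, 9.93 and 8.88 CPM in their primed controls (log2 −0.56 ± 0.19, adjusted p = 0.0366). Single libraries ended these calls (adjusted p in parentheses): ATF3 without any 1 of CARHSP1 knockdown replicates 1 and 2 and primed control replicates 1, 2 and 3 (0.0553 to 0.201); ATF5 without any 1 of CARHSP1 knockdown replicate 2 and primed control replicates 1 and 3 (0.0815 to 0.127); CEBPG without any 1 of CARHSP1 knockdown replicates 1 and 3 and primed control replicates 1, 2 and 3 (0.0526 to 0.14); SESN2 without any 1 of CARHSP1 knockdown replicate 2 and primed control replicate 3 (0.106 to 0.219); SLC3A2 without any 1 of CARHSP1 knockdown replicates 1 and 2 and primed control replicates 2 and 3 (0.0596 to 0.145); DDIT4 without any 1 of CARHSP1 knockdown replicates 1, 2 and 3 and primed control replicates 2 and 3 (0.059 to 0.134). Without primed control replicate 3, 9 members rose and 0 fell. Other settings ended some of these calls too. With DESeq2 ATF3 (0.101), ATF5 (0.0535), DDIT4 (0.0881), SESN2 (0.0701) and CEBPG (0.0831) no longer passed. Without the low-count filter ATF3 (0.0697), DDIT4 (0.0567), SLC3A2 (0.0721) and CEBPG (0.0769) no longer passed. With all groups in one fit ATF3 (0.0612), SLC3A2 (0.126) and CEBPG (0.0671) no longer passed. With GC and length trends taken out ATF3 (0.0773), DDIT4 (0.102) and CEBPG (0.149) no longer passed. The calls of the 9 members named before them held without any 1 library.

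A further 19 tested members did not pass, with log2 changes between −0.32 and 0.26. ATF4 averaged 422 ± 23.5 against 395 ± 4.49 CPM (log2 0.09 ± 0.05, adjusted p = 0.146) and passed without CARHSP1 knockdown replicate 3 (0.0364) and after correction for GC content and length (0.00121). PHGDH averaged 513 ± 26.3 against 480.5 ± 21.1 CPM and SHMT2 284 ± 4.25 against 291 ± 2.80 CPM, so of the serine and one-carbon enzymes PSAT1, PSPH and MTHFD2 passed and PHGDH, SHMT2 and ALDH1L2 did not. PHGDH passed with GC and length trends taken out (0.00341) and without CARHSP1 knockdown replicate 3 (0.0342). That correction also brought CHAC1 (0.0315), SLC6A9 (0.0301) and GPT2 (0.0477) past the threshold. NIBAN1, which rose in the other two knockdowns, averaged 23.9 ± 3.06 against 28.6 ± 2.97 CPM here (log2 −0.27 ± 0.11, adjusted p = 0.0866) and passed as lower without CARHSP1 knockdown replicate 3 (log2 −0.35, adjusted p = 0.0409) and without primed control replicate 2 (log2 −0.34, adjusted p = 0.0453). Of the tRNA synthetases 14 of 20 rose and 1 fell, with GARS1 at 405 ± 5.51 against 317 ± 11.8 CPM (log2 0.35 ± 0.05, adjusted p = 1.95e-07). Of 9 tested further ATF4 targets 1 rose, the secreted stress hormone GDF15 at 2.37 ± 0.920 against 0.733 ± 0.159 CPM (log2 1.69 ± 0.43, adjusted p = 0.00432), and 2 fell, KLHL24 and LONP1, a mitochondrial protease, which averaged 104 ± 15.6 against 137 ± 4.64 CPM (log2 −0.40 ± 0.07, adjusted p = 4.89e-05). GDF15 was low in both groups, and the spread of its knockdown libraries was large beside their mean. Of 14 genes of the XBP1 and ATF6 branch 5 rose, with the chaperone HSPA5 at 753 ± 16.6 against 664 ± 10.7 CPM (log2 0.18 ± 0.04, adjusted p = 0.0011). The folate list gave 4 rises and 1 fall of 9, the further transporters 3 and 3 of 13 and the eIF2 list 2 and 1 of 10. The background for every list here is that 10.3% of all genes tested rose and 9.87% fell. Naive markers summed to 25.8 to 29.6 CPM in the knockdown libraries, against 35.8 to 41.0 CPM in controls, and core pluripotency genes to 3538 to 3760.0 CPM, against 3874 to 4004 CPM. Their part in the result was not tested.

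Whether the knockdown effects differed in size was tested directly, as the difference of the log2 changes in a fit of the 4 groups concerned. State and target differ together between these pairs, so they cannot be told apart. Of 35 tested members 29 differed between the ZIC2 and CARHSP1 effects, 28 with the ZIC2 effect above and 1 below, where 28.2% of all genes differed, 15.5% above and 12.6% below. Between the ZNF8 and ZIC2 effects 24 differed, 3 with ZNF8 above and 21 below, where 16.7% of all genes differed, 6.59% above and 10.1% below. Between ZNF8 and CARHSP1 18 differed, all with ZNF8 above, where 21.1% of all genes differed, 11.4% above and 9.77% below. The difference for SLC7A5 was 2.14 ± 0.10 between ZIC2 and CARHSP1 (adjusted p = 2.06e-16) and −1.43 ± 0.09 between ZNF8 and ZIC2 (adjusted p = 3.87e-13). ATF5 gave 2.66 ± 0.19 and −2.34 ± 0.19 (adjusted p = 3.46e-12 and 5.13e-11). SLC7A1, PCK2 and ALDH18A1 were the members with the ZNF8 effect above the ZIC2 effect, by 1.07 ± 0.11, 0.55 ± 0.13 and 0.71 ± 0.10 (adjusted p = 4.57e-09, 0.0031 and 5.88e-06).

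Between naive and primed H9 cells, members moved both ways. All 36 were tested, 13 were higher and 10 lower in naive cells, against 25.4% and 26.1% of all genes. These shares are not far from the background, and the median log2 change was 0.0431 against 0.00428. Of the 7 regulators 4 were higher (ATF4, DDIT3, CEBPB and NUPR1), and of the 6 effectors 3 were higher (DDIT4, SESN2 and STC2) and NIBAN1 was lower. ALDH1L2 stood at 33.8, 33.2 and 32.7 CPM in naive H9 cells, against 13.97, 11.5 and 12.6 CPM in primed H9 cells (log2 1.38 ± 0.13, adjusted p = 2.79e-08). NUPR1 had 5.70, 4.48 and 5.76 CPM in naive H9 cells, against 0.254, 0.313 and 0.464 CPM in primed H9 cells (log2 3.93 ± 0.35, adjusted p = 2.01e-08). DDIT4 stood at 136, 162 and 144 CPM in naive H9 cells, against 55.6, 48.7 and 81.0 CPM in primed H9 cells (log2 1.25 ± 0.14, adjusted p = 3.6e-07). These were the 3 members at least 2-fold higher in naive cells, where 7.89% of all genes were. STC2 had 187, 206 and 172 CPM in naive H9 cells, against 108, 107 and 122 CPM in primed H9 cells (log2 0.74 ± 0.09, adjusted p = 2e-06). DDIT3 stood at 44.9, 47.3 and 35.7 CPM in naive H9 cells, against 25.0, 20.5 and 22.9 CPM in primed H9 cells (log2 0.90 ± 0.13, adjusted p = 9.26e-06), with MARS1 at 387 ± 9.76 against 332 ± 17.1 CPM (log2 0.22 ± 0.08, adjusted p = 0.0265). MTHFD2 had 319.9, 298 and 346 CPM in naive H9 cells, against 231, 234 and 209.8 CPM in primed H9 cells (log2 0.51 ± 0.09, adjusted p = 5.46e-05). None of these overlapped between states. SHMT2 stood at 431, 465 and 405 CPM in naive H9 cells, against 351, 315 and 344 CPM in primed H9 cells (log2 0.36 ± 0.08, adjusted p = 0.00115). SLC3A2 had 295, 297 and 259 CPM in naive H9 cells, against 227, 209 and 236 CPM in primed H9 cells (log2 0.34 ± 0.09, adjusted p = 0.00283). SESN2 averaged 74.5 ± 0.695 against 58.4 ± 2.68 CPM (log2 0.35 ± 0.09, adjusted p = 0.00338).

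Of the 9 transporters 4 were lower and 3 higher in naive H9 cells, and of the 7 enzymes outside serine and one-carbon metabolism 4 were lower. SLC38A2 stood at 163, 147 and 163 CPM in naive H9 cells, against 472, 549.9 and 499 CPM in primed H9 cells (log2 −1.68 ± 0.09, adjusted p = 9.66e-12). SLC7A3 had 292, 289 and 283 CPM in naive H9 cells, against 733, 643 and 667 CPM in primed H9 cells (log2 −1.24 ± 0.08, adjusted p = 2.45e-10). SLC7A1 stood at 83.5, 92.0 and 99.1 CPM in naive H9 cells, against 129, 163 and 160.4 CPM in primed H9 cells (log2 −0.72 ± 0.10, adjusted p = 9.38e-06). The first 2 of these were the members at least 2-fold lower, where 9.92% of all genes were. SLC6A9 had 14.7, 15.6 and 13.3 CPM in naive H9 cells, against 23.6, 25.6 and 31.9 CPM in primed H9 cells (log2 −0.90 ± 0.14, adjusted p = 3.06e-05). NIBAN1 stood at 10.5, 13.8 and 13.1 CPM in naive H9 cells, against 20.6, 26.3 and 21.3 CPM in primed H9 cells (log2 −0.86 ± 0.15, adjusted p = 7.95e-05). CBS had 17.0, 16.8 and 13.4 CPM in naive H9 cells, against 22.2, 21.5 and 27.1 CPM in primed H9 cells (log2 −0.59 ± 0.14, adjusted p = 0.00187), with CBSL at 10.7 ± 1.56 against 19.6 ± 0.913 CPM (log2 −0.88 ± 0.15, adjusted p = 5.25e-05). All libraries of these 3 genes were lower in the naive state. PCK2 stood at 139, 158 and 139 CPM in naive H9 cells, against 189.8, 165 and 191 CPM in primed H9 cells (log2 −0.33 ± 0.09, adjusted p = 0.00542). GPT2 had 79.4, 89.1 and 78.0 CPM in naive H9 cells, against 99.8, 97.0 and 109 CPM in primed H9 cells (log2 −0.31 ± 0.09, adjusted p = 0.00838). The remaining 6 calls did not hold on leaving out single libraries. ATF4 averaged 449 ± 18.1 against 382 ± 50.4 CPM (log2 0.23 ± 0.09, adjusted p = 0.0408), CEBPB 14.6 ± 0.717 against 10.4 ± 1.64 CPM (log2 0.47 ± 0.15), SLC1A4 4.25 ± 0.869 against 2.60 ± 0.658 CPM (log2 0.72 ± 0.27), SLC1A5 325 ± 21.3 against 271 ± 22.0 CPM (log2 0.26 ± 0.09), PSAT1 434 ± 14.1 against 515 ± 32.9 CPM (log2 −0.25 ± 0.08) and PYCR1 92.9 ± 9.11 against 115 ± 25.3 CPM (log2 −0.31 ± 0.13). Calls were lost as follows (adjusted p in parentheses): ATF4 without any 1 of naive H9 replicates 1 and 2 and primed H9 replicates 2 and 3 (0.0832 to 0.215); CEBPB without any 1 of naive H9 replicate 1 and primed H9 replicate 2 (0.057 to 0.0628); SLC1A4 without any 1 of naive H9 replicates 1 and 3 and primed H9 replicate 3 (0.088 to 0.132); SLC1A5 without any 1 of naive H9 replicates 1 and 2 and primed H9 replicate 2 (0.0594 to 0.0831); PSAT1 without naive H9 replicate 2 (0.0763); PYCR1 without any 1 of naive H9 replicates 1 and 3 and primed H9 replicates 1 and 3 (0.0822 to 0.317). With DESeq2 SLC1A4 (0.107) and PYCR1 (0.0779) no longer passed. With RLE scaling PYCR1 (0.0507) no longer passed. With a replicate block PYCR1 (0.0797) no longer passed. With GC and length trends taken out ATF4 (0.13) and CEBPB (0.085) no longer passed. SLC7A5, PHGDH, ATF3 and 10 others did not pass, with log2 changes between −0.22 and 0.32. Of these 13, 5 passed under some other setting: ATF5 without the low-count filter (0.035), without naive H9 replicate 3 (0.0101) or without primed H9 replicate 3 (0.0252), SLC7A11 (0.0223) and XPOT (0.0417) without naive H9 replicate 3, PSPH with GC and length trends taken out (0.0311), and SLC7A5 once a replicate block was added to that correction (0.0233).

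Beside them, 14 of 20 tRNA synthetases were higher and 1 lower in naive H9 cells, with WARS1 at 339.8 ± 3.73 against 177 ± 8.53 CPM (log2 0.94 ± 0.08, adjusted p = 1.17e-08). Of 14 genes of the XBP1 and ATF6 branch 7 were higher and none lower, with HSPA5 at 1119.5 ± 23.0 against 522 ± 32.4 CPM (log2 1.10 ± 0.08, adjusted p = 9.12e-10). Further ATF4 targets divided, 3 higher and 3 lower of 10, with LONP1 at 192 ± 13.5 against 98.2 ± 14.8 CPM (log2 0.97 ± 0.10, adjusted p = 2.43e-07) and INHBE at 10.7 ± 1.34 against 38.9 ± 0.712 CPM (log2 −1.87 ± 0.13, adjusted p = 6.52e-10). Of the further transporters 2 of 13 were higher and 8 lower. The background for every list here is that 25.4% of all genes tested were higher and 26.1% lower. PPP1R15A, the stress-induced subunit that leads eIF2 back to its dephosphorylated form, averaged 48.1 ± 4.48 against 26.2 ± 3.38 CPM (log2 0.87 ± 0.12, adjusted p = 7.14e-06), and EIF2AK4, the amino acid sensing kinase GCN2, 121 ± 7.10 against 195 ± 13.8 CPM (log2 −0.68 ± 0.09, adjusted p = 2.92e-06).

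Among nontargeting H1 controls the naive and primed states were farther apart. Of 34 tested members 11 were higher and 17 lower in naive cells, against 35% and 36.1% of all genes, and the median was −0.345 against 0.00243. SLC7A5 and SLC3A2 had the smallest adjusted p among the rises, and the largest log2 rises were those of DDIT3, DDIT4 and SLC1A4. SLC7A5 stood at 1189, 1274 and 1319 CPM in naive H1 controls, against 370.3, 367 and 339 CPM in primed H1 controls (log2 1.81 ± 0.04, adjusted p = 1.01e-45). SLC3A2 had 512, 532 and 539 CPM in naive H1 controls, against 276, 261 and 264 CPM in primed H1 controls (log2 0.98 ± 0.04, adjusted p = 2.78e-30). MTHFD2 stood at 387, 380.3 and 376 CPM in naive H1 controls, against 209, 209 and 235 CPM in primed H1 controls (log2 0.81 ± 0.05, adjusted p = 3.4e-24). All naive libraries stood above all primed ones in these genes. DDIT4 had 35.3, 38.6 and 43.9 CPM in naive H1 controls, against 7.28, 9.68 and 8.72 CPM in primed H1 controls (log2 2.22 ± 0.13, adjusted p = 1.55e-23). SLC7A11 stood at 65.7, 59.2 and 61.1 CPM in naive H1 controls, against 32.8, 32.4 and 33.1 CPM in primed H1 controls (log2 0.92 ± 0.09, adjusted p = 4.08e-15). ALDH1L2 had 26.4, 33.0 and 35.9 CPM in naive H1 controls, against 14.1, 13.5 and 16.1 CPM in primed H1 controls (log2 1.11 ± 0.13, adjusted p = 7.77e-12). DDIT3 stood at 6.67, 5.98 and 6.92 CPM in naive H1 controls, against 0.891, 1.72 and 1.26 CPM in primed H1 controls (log2 2.39 ± 0.33, adjusted p = 2.04e-09). TRIB3 had 19.8, 25.1 and 24.4 CPM in naive H1 controls, against 12.3, 10.5 and 10.9 CPM in primed H1 controls (log2 1.03 ± 0.14, adjusted p = 3.1e-09). SESN2 averaged 35.2 ± 2.44 against 27.4 ± 3.09 CPM (log2 0.36 ± 0.11), CTH 38.6 ± 2.24 against 26.5 ± 2.41 CPM (log2 0.55 ± 0.10) and SLC1A4 1.58 ± 0.568 against 0.405 ± 0.344 CPM (log2 2.12 ± 0.59). The SLC1A4 fold was 1.7 times larger without primed control replicate 2 and rests on 51 reads against 11.

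Of the 6 serine and one-carbon enzymes 4 were lower in naive H1 controls and 2 higher, and PHGDH, PSAT1 and the arginine carriers were far lower. PHGDH stood at 113, 113 and 109 CPM in naive H1 controls, against 488, 475 and 449 CPM in primed H1 controls (log2 −2.07 ± 0.05, adjusted p = 1.35e-45). SLC7A3 had 19.4, 22.2 and 23.1 CPM in naive H1 controls, against 166, 176 and 179 CPM in primed H1 controls (log2 −3.01 ± 0.07, adjusted p = 2.19e-44). SLC7A1 stood at 21.5, 21.2 and 17.7 CPM in naive H1 controls, against 149, 161 and 152 CPM in primed H1 controls (log2 −2.93 ± 0.08, adjusted p = 1.27e-42). The naive libraries were far below the primed ones in each of these. SLC38A2 had 187, 177 and 174 CPM in naive H1 controls, against 529.6, 555 and 525 CPM in primed H1 controls (log2 −1.58 ± 0.05, adjusted p = 1.78e-40). PSAT1 stood at 116, 117 and 114 CPM in naive H1 controls, against 285, 280.4 and 293 CPM in primed H1 controls (log2 −1.31 ± 0.05, adjusted p = 1.61e-33). PCK2 had 11.8, 9.10 and 10.7 CPM in naive H1 controls, against 67.4, 72.8 and 67.4 CPM in primed H1 controls (log2 −2.71 ± 0.11, adjusted p = 3.5e-33). These enzymes and this carrier showed no overlap. SHMT2 stood at 124, 127 and 119.7 CPM in naive H1 controls, against 283, 286 and 285 CPM in primed H1 controls (log2 −1.20 ± 0.05, adjusted p = 1.05e-31). SLC1A5 had 87.6, 90.5 and 81.8 CPM in naive H1 controls, against 208, 221 and 212 CPM in primed H1 controls (log2 −1.30 ± 0.06, adjusted p = 5.85e-31). The largest fall was that of NIBAN1, at 1.85 ± 0.285 against 28.0 ± 3.01 CPM (log2 −3.93 ± 0.19), and PYCR1 at 20.9 ± 2.25 against 76.3 ± 3.41 CPM (log2 −1.87 ± 0.09) and STC2 at 15.1 ± 3.23 against 44.9 ± 2.91 CPM (log2 −1.55 ± 0.12) fell too. ATF4 averaged 266 ± 9.18 against 387 ± 4.68 CPM (log2 −0.54 ± 0.04, adjusted p = 3.74e-17). ATF3 averaged 16.7 ± 0.605 against 21.1 ± 2.69 CPM (log2 −0.36 ± 0.13, adjusted p = 0.0138), a call lost without primed control replicate 1 or 3 (adjusted p 0.0641 to 0.0844) and with DESeq2 (0.062). CBS, PSPH, XPOT and ALDH18A1 also fell, with log2 changes of −0.97, −0.33, −0.82 and −0.98. CHAC1 and SLC6A9, which did not pass, were higher with GC and length trends taken out (0.00283 and 0.00282), and CHAC1 also with a replicate block (0.0488), without naive control replicate 2 (0.0258) and without primed control replicate 3 (0.0307). NUPR1 had 12 reads in the naive controls and 0 in the primed controls. ASNS had 8 reads in naive controls and 35 in primed controls.

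**Figure D3:**
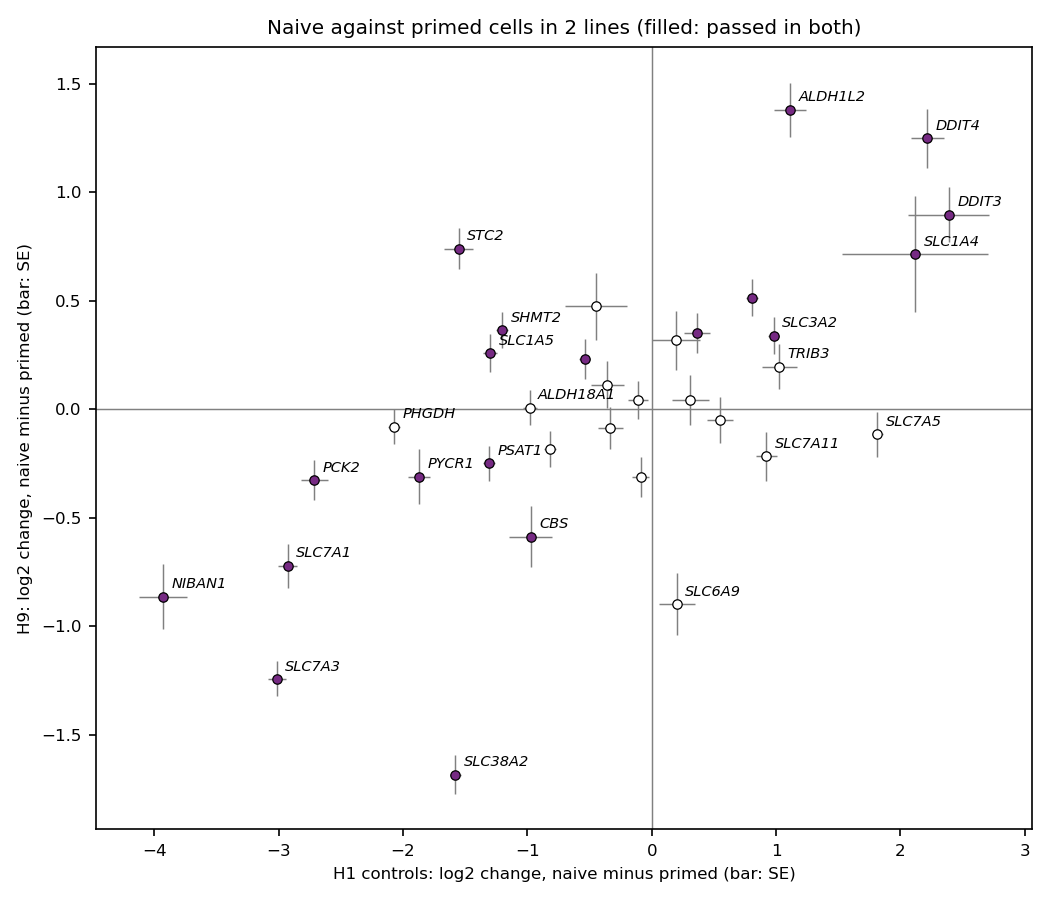
The log2 change of 34 members in naive against primed cells, with nontargeting H1 controls on the horizontal axis, H9 cells on the vertical axis and bars of 1 SE; filled points passed an adjusted p of 0.05 in both lines. DDIT3, DDIT4 and ALDH1L2 lie in the upper right and SLC7A3, SLC7A1 and SLC38A2 in the lower left, while STC2, SHMT2 and SLC1A5 lie in the upper left.

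The H9 and H1 state comparisons share no library. Of 34 members tested in both, 19 passed in both: 7 were higher in the naive state in both lines (SESN2, SLC1A4, MTHFD2, SLC3A2, DDIT4, DDIT3 and ALDH1L2), 8 were lower in both (NIBAN1, SLC7A3, PSAT1, SLC38A2, SLC7A1, PCK2, PYCR1 and CBS), and STC2, SHMT2, SLC1A5 and ATF4 went opposite ways. The same direction held for 78.9% of these members and for 79% of the 6060 genes that passed in both, so the members' share was that of the background. In H1, 12 of 14 genes of the XBP1 and ATF6 branch were higher and 1 lower, with HYOU1, a chaperone of the endoplasmic reticulum, at 1307 ± 40.6 against 435 ± 19.3 CPM (log2 1.59 ± 0.04, adjusted p = 1.16e-43). Of 20 tRNA synthetases 8 were higher and 9 lower, WARS1 at 632 ± 13.0 against 161 ± 4.22 CPM (log2 1.97 ± 0.04, adjusted p = 3.46e-46) and MARS1 at 225 ± 4.49 against 339.8 ± 10.4 CPM (log2 −0.60 ± 0.05, adjusted p = 1.33e-18). Of 8 tested further ATF4 targets 5 were lower, with VLDLR at 8.57 ± 0.636 against 45.7 ± 2.55 CPM (log2 −2.40 ± 0.12, adjusted p = 4.92e-27). PPP1R15A averaged 94.0 ± 2.06 against 23.8 ± 2.56 CPM (log2 1.96 ± 0.08, adjusted p = 4.06e-31). The background for these H1 lists is that 35% of all genes tested were higher and 36.1% lower. Line, doxycycline label and count table differ together between H9 and H1, so they cannot be told apart.

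In day 2 ectoderm controls against primed controls, 9 of 34 tested members were higher and 18 lower, against 30.7% and 32.1% of all genes, with a median of −0.157 against −0.00152. With GC and length trends removed the split became 12 and 12. This comparison and the H1 state comparison share the 3 primed control libraries, which are also the controls of the CARHSP1 knockdown. The naive control libraries serve both the ZNF8 and the H1 state comparison, and the ectoderm control libraries both the ZIC2 comparison and this one. Opposite changes in 2 comparisons with a shared control are thus not independent. The 9 that were higher in ectoderm were the regulators DDIT3 and CEBPG, the effectors DDIT4 and STC2, the serine and one-carbon enzymes PSAT1, PSPH and MTHFD2, and CTH and SLC6A9, while the effectors TRIB3 and NIBAN1 were lower. DDIT4 stood at 80.8, 54.8 and 68.1 CPM in ectoderm controls, against 7.48, 9.94 and 8.92 CPM in primed H1 controls (log2 2.97 ± 0.14, adjusted p = 3.09e-17). STC2 had 82.4, 75.8 and 91.5 CPM in ectoderm controls, against 43.7, 49.4 and 44.9 CPM in primed H1 controls (log2 0.86 ± 0.09, adjusted p = 6.73e-10). CEBPG stood at 88.6, 93.7 and 101 CPM in ectoderm controls, against 53.7, 51.6 and 56.8 CPM in primed H1 controls (log2 0.81 ± 0.08, adjusted p = 3.53e-10). DDIT4 thus had the largest rise of any member in this comparison. CTH had 56.1, 50.7 and 43.4 CPM in ectoderm controls, against 24.4, 28.2 and 28.97 CPM in primed H1 controls (log2 0.88 ± 0.11, adjusted p = 6.03e-08). DDIT3 stood at 3.39, 4.88 and 4.31 CPM in ectoderm controls, against 0.916, 1.77 and 1.29 CPM in primed H1 controls (log2 1.72 ± 0.38, adjusted p = 0.000253). SLC6A9 had 25.5, 23.7 and 22.3 CPM in ectoderm controls, against 17.9, 11.6 and 18.0 CPM in primed H1 controls (log2 0.56 ± 0.15, adjusted p = 0.00154). PSAT1, PSPH and MTHFD2 rose slightly, by log2 0.14, 0.27 and 0.17.

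Of the transporters, 6 were lower in ectoderm. SLC7A5 stood at 84.4, 74.4 and 72.4 CPM in ectoderm controls, against 380.5, 376 and 346 CPM in primed H1 controls (log2 −2.26 ± 0.07, adjusted p = 3.27e-22). SLC7A3 had 67.7, 66.9 and 61.4 CPM in ectoderm controls, against 171, 181 and 183 CPM in primed H1 controls (log2 −1.45 ± 0.07, adjusted p = 2.58e-17). SLC3A2 stood at 141, 131 and 125 CPM in ectoderm controls, against 283, 268 and 270.0 CPM in primed H1 controls (log2 −1.06 ± 0.06, adjusted p = 3.69e-15). SLC7A5 thus had the largest fall, in the setting where the ZIC2 knockdown libraries were far above these same controls. NIBAN1 had 5.15, 6.38 and 6.76 CPM in ectoderm controls, against 30.2, 25.2 and 30.7 CPM in primed H1 controls (log2 −2.22 ± 0.16, adjusted p = 3.88e-13). SLC1A5 stood at 118, 127 and 121 CPM in ectoderm controls, against 213, 227 and 217 CPM in primed H1 controls (log2 −0.84 ± 0.06, adjusted p = 6.23e-13). PYCR1 had 45.0, 44.7 and 48.3 CPM in ectoderm controls, against 80.1, 80.6 and 74.0 CPM in primed H1 controls (log2 −0.76 ± 0.08, adjusted p = 2.81e-09). None overlapped between groups. XPOT stood at 240.4, 257 and 251 CPM in ectoderm controls, against 333, 334 and 319.8 CPM in primed H1 controls (log2 −0.40 ± 0.05, adjusted p = 2.96e-07). TRIB3 had 2.94, 3.99 and 4.56 CPM in ectoderm controls, against 12.7, 10.8 and 11.1 CPM in primed H1 controls (log2 −1.56 ± 0.22, adjusted p = 4.8e-07). ALDH1L2 averaged 7.79 ± 1.23 against 14.9 ± 1.34 CPM (log2 −0.93 ± 0.17), CEBPB 2.61 ± 0.332 against 5.94 ± 0.209 CPM (log2 −1.21 ± 0.29) and ATF3 15.5 ± 1.15 against 21.7 ± 2.75 CPM (log2 −0.50 ± 0.14). SLC7A1, SLC38A2, GPT2, ALDH18A1 and PHGDH fell by less, with log2 changes of −0.26, −0.18, −0.39, −0.39 and −0.16. PCK2 (log2 −0.50 ± 0.08) and ATF4 (log2 −0.13 ± 0.06, adjusted p = 0.0447) fell as well, but turned to 0.076 and 0.16 on the log2 scale once trends with GC content and length were taken out (adjusted p = 0.429 and 0.0171). Calls were lost as follows (adjusted p in parentheses): ATF4 without any 1 of ectoderm control replicate 1 and primed control replicates 1, 2 and 3 (0.089 to 0.37); PSAT1 without any 1 of ectoderm control replicate 3 and primed control replicates 1 and 2 (0.06 to 0.121); PHGDH without any 1 of ectoderm control replicate 2 and primed control replicates 1 and 2 (0.0515 to 0.0961); PSPH without any 1 of ectoderm control replicate 3 and primed control replicates 1 and 2 (0.073 to 0.237); MTHFD2 without any 1 of primed control replicates 1 and 2 (0.0936 to 0.0952). With DESeq2 ATF4 (0.076) and PSPH (0.0808) no longer passed. Without the low-count filter PSAT1 (0.0947) no longer passed. With all groups in one fit ATF4 (0.0529) no longer passed. With GC and length trends taken out PSAT1 (0.171), PHGDH (0.887), MTHFD2 (0.623), SLC7A1 (0.0996), CEBPB (0.561), PYCR1 (0.121) and GPT2 (0.0694) no longer passed. Of the 7 tested members that did not pass, 5 passed with GC and length trends taken out: ATF5 (0.00302), CHAC1 (2.43e-05), SESN2 (0.00153) and SHMT2 (0.00547) as higher and SLC7A11 (0.0127) as lower. For SESN2 and SHMT2 the sign turned, to log2 0.45 and 0.18. The background for the lists that follow is that 30.7% of all genes tested were higher and 32.1% lower. Of the tRNA synthetases 7 of 20 were higher and 4 lower, with TARS1 at 631 ± 49.9 against 443 ± 4.85 CPM (log2 0.51 ± 0.06, adjusted p = 4.82e-09) and VARS1 at 148 ± 13.0 against 219 ± 9.78 CPM (log2 −0.56 ± 0.06, adjusted p = 1.26e-08), and of 8 tested further ATF4 targets 3 were higher and 4 lower, with EIF4EBP1 at 45.3 ± 1.48 against 114 ± 4.92 CPM (log2 −1.33 ± 0.07, adjusted p = 2.68e-15).

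Levels across groups and genes were compared per transcript length, as TPM (transcripts per 1000000; SD over 3 libraries). The H1 and H9 counts came in separate tables, so levels set across them carry that limit. ATF4 ran, from high to low, 617 ± 20.4 in ZIC2 knockdown, 485 ± 36.1 in ectoderm controls, 480.1 ± 11.2 in naive H9 cells, 477 ± 25.5 in CARHSP1 knockdown, 469.8 ± 53.7 in primed H9 cells, 463 ± 4.84 in primed H1 controls, 298 ± 12.3 in naive H1 controls, 283 ± 10.6 in libraries labelled ZNF8 knockdown. The 5 middle groups had means between 463 and 485 TPM, and the ZIC2 knockdown stood above and both naive H1 groups below them. TPM carries no TMM scaling, and the order of groups can differ from that in the comparisons above. ATF4 and PHGDH, called lower in ectoderm than in primed controls (361 against 397 and 433 against 482 CPM), were higher there in TPM. Their TPM means were 485 against 463 and 184 against 179. The ATF4 range over the groups was 2.18-fold, the narrowest of the members. SLC7A5 ran 1754 ± 96.3 in libraries labelled ZNF8 knockdown, 862 ± 49.1 in naive H1 controls, 371 ± 44.1 in ZIC2 knockdown, 329 ± 25.2 in CARHSP1 knockdown, 262 ± 13.7 in primed H1 controls, 149 ± 26.5 in primed H9 cells, 119 ± 11.1 in naive H9 cells, 63.4 ± 5.93 in ectoderm controls, a 27.7-fold range, and was the most abundant member in both naive H1 groups. PSAT1 ran 1476 ± 9.83 in ZIC2 knockdown, 838 ± 33.6 in primed H9 cells, 627 ± 1.86 in CARHSP1 knockdown, 612 ± 23.6 in naive H9 cells, 572 ± 17.7 in ectoderm controls, 452 ± 7.28 in primed H1 controls, 349.8 ± 29.3 in libraries labelled ZNF8 knockdown, 171 ± 2.94 in naive H1 controls, and led in the CARHSP1 knockdown, both ectoderm groups and naive H9 cells. The widest ranges with a level above 0 in every group were those of DDIT3 at 42.7-fold and NIBAN1 at 40.6-fold, followed by SLC7A3 at 34.97-fold, whose mean was 1076 ± 51.4 TPM in primed H9 cells and 30.8 ± 3.28 TPM in the libraries labelled ZNF8 knockdown. The DDIT3 range ran from 101 TPM in naive H9 cells to 2.37 TPM in the CARHSP1 knockdown. That lowest DDIT3 level rests on 46 reads, and the lowest NIBAN1 level, in naive H1 controls, on 60 reads.

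**Figure D4:**
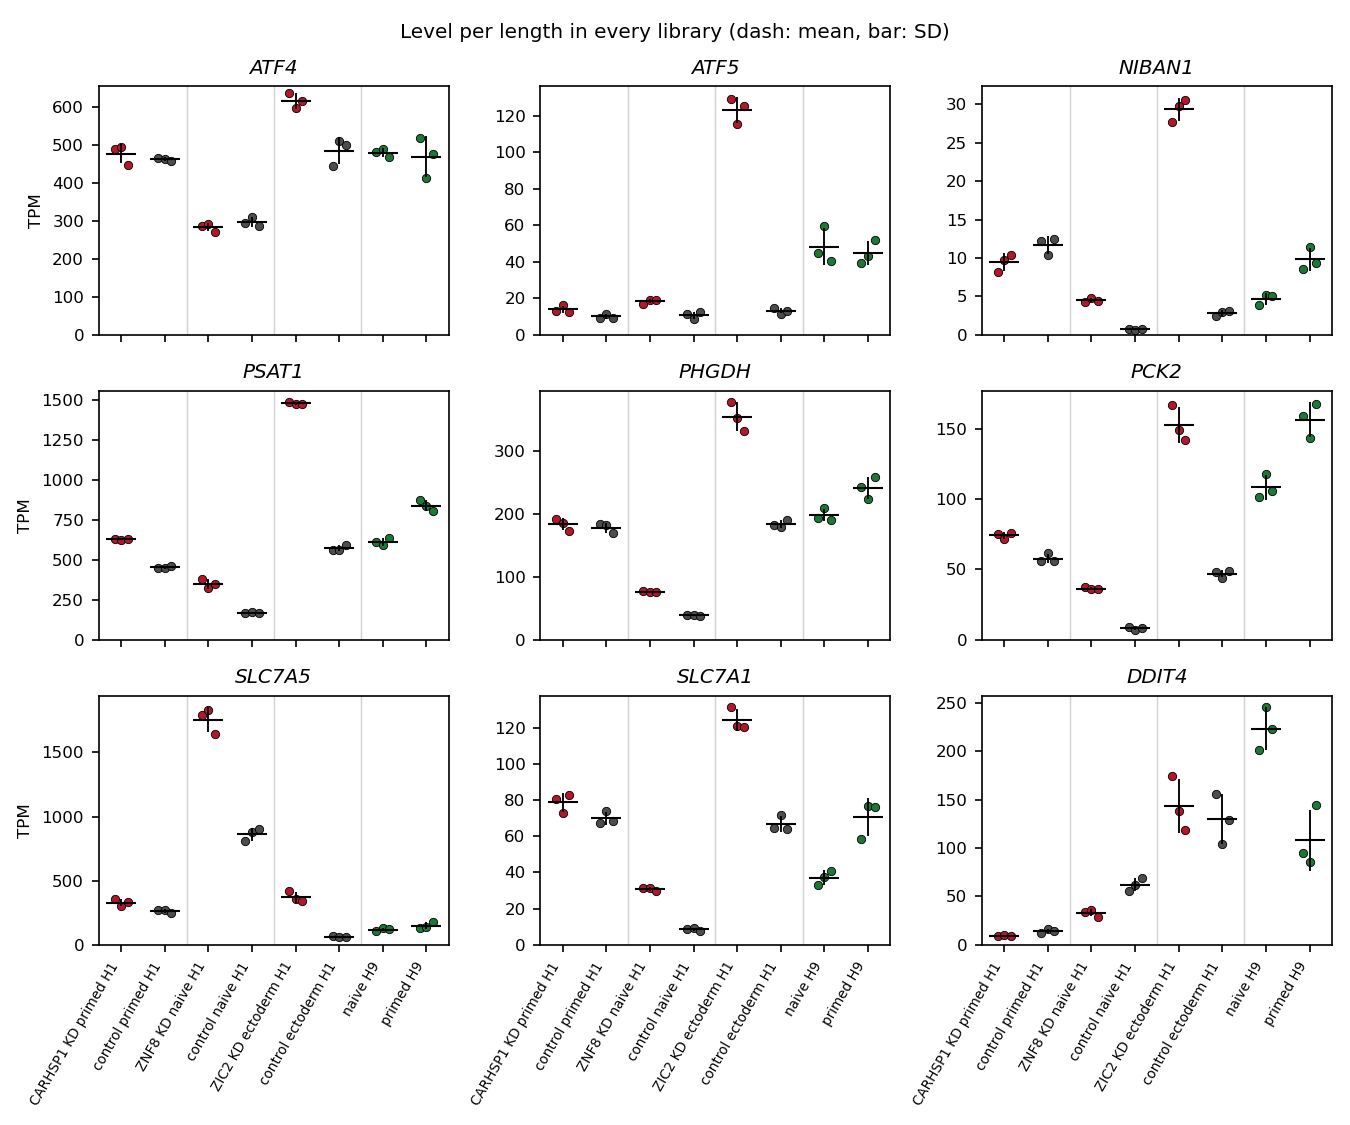
TPM on the vertical axis of ATF4 and 8 other members by group, 1 panel a gene, with a point for each library, a dash for the mean and a bar for the SD. Red points are knockdowns, grey points their controls and green points H9 cells. SLC7A5 spans 63.4 TPM in ectoderm controls to 1754 TPM in the libraries labelled ZNF8 knockdown, whereas ATF4 spans 283 to 617 TPM.

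Over the 36 members the median level was 115.7 TPM in the ZIC2 knockdown and 57.8 TPM in its controls, 35.3 TPM in the libraries labelled ZNF8 knockdown and 28.6 TPM in naive controls, 44.5 TPM in the CARHSP1 knockdown and 41.8 TPM in primed controls, and 71.2 TPM in naive and 71.4 TPM in primed H9 cells. The ZIC2 knockdown was the highest group for 21 members, primed H9 for 7, and the ZNF8 knockdown label and naive H9 for 4 each. The naive H1 controls were lowest for 15, the primed H1 controls for 8. The members at 100 TPM or more numbered 20 in the ZIC2 knockdown and 12 in its controls, 8 in the libraries labelled ZNF8 knockdown and 5 in naive controls, 12 in the CARHSP1 knockdown and 12 in primed controls, and 16 in naive and 16 in primed H9 cells. NUPR1, ASNS and SLC1A4 were low in most groups, and their values rest on few reads.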

How the data were processed

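Whole-number read counts per gene, without normalization, were deposited by the authors in 2 tables, 1 for H1 with a gene length in bases (also deposited by the authors) and 1 for H9. RNeasy columns and a TruSeq Stranded mRNA kit were used, per the labels' protocols. Per the submitters' processing notes, the tools and build include HISAT2 and GRCh38. The aligner's version, counting tool, strand setting and annotation are not stated in these sources. A further 27 columns of the H1 table match no sample here and were not used. Symbols were matched to 60401 identifiers, and GC content and overlaps came from GENCODE 29.

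Each comparison was fitted with edgeR 4.0.16 (R 4.3.3) on its 2 groups: filterByExpr, TMM, quasi-likelihood F test (2-sided), Benjamini-Hochberg over all genes and a threshold of 0.05. The SE of a log2 change was derived from the F statistic. Differences between effects were fitted on 4 groups. DESeq2 1.42.0 was an alternative. TPM was computed from counts per deposited length. The knockdown fits and the difference between the ZNF8 and CARHSP1 effects were tested on simulated data with known changes. Every gene in a simulation had the same biological coefficient of variation. Replicates differed by 2.44 to 9.16 chi-square units per degree of freedom (genes with at least 20 counts), so none was treated as a repeat. Biological coefficients of variation were 6.13% to 9.67%.

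The members, lists, naming rule and tests were chosen with earlier results of these data known. Full values were given for up to 8 members higher and 8 lower with the smallest adjusted p in a comparison, and from other lists genes were taken from the 3 with the smallest adjusted p. ATF4 in the CARHSP1 and ZNF8 comparisons, DDIT4 in ZIC2 and SLC38A2 in ZNF8 were described beyond that rule.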

Additional observations from a re-analysis of the deposited data

Results flagged for a closer look

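The results below stand out because a test of the difference itself, between the effects of 2 knockdowns, passed an adjusted p of 0.05 (edgeR's quasi-likelihood test of the interaction, Benjamini-Hochberg over all genes); genes are named where the log2 changes differed by at least 1. Values are the first effect minus the second on the log2 scale, with the SE.

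Between the ZIC2 and CARHSP1 effects, 29 of 35 members differed. Among regulators the differences were ATF5 2.66 ± 0.19 and CEBPB 1.27 ± 0.33. Among effectors they were NIBAN1 3.55 ± 0.18, TRIB3 2.11 ± 0.26, CHAC1 1.26 ± 0.22, STC2 1.16 ± 0.10 and SESN2 1.05 ± 0.14. Among enzymes they were ALDH1L2 2.28 ± 0.20, ASNS 2.04 ± 0.62, PCK2 1.24 ± 0.10 and PYCR1 1.15 ± 0.11, and among transporters SLC7A5 2.14 ± 0.10, SLC7A11 1.95 ± 0.14 and SLC7A3 1.13 ± 0.09. The ZIC2 effect was above in each. The ASNS value rests on few reads and did not pass without primed control replicate 2 (1.49, adjusted p = 0.0918), and that of CEBPB did not pass (0.51, adjusted p = 0.295) once GC and length trends were taken out.

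Between the ZNF8 and ZIC2 effects, 24 members differed. The ZNF8 effect was below the ZIC2 effect in ATF5 −2.34 ± 0.19, SLC7A11 −1.62 ± 0.13, SLC7A5 −1.43 ± 0.09, TRIB3 −1.29 ± 0.23, SESN2 −1.24 ± 0.14, SLC7A3 −1.17 ± 0.12 and ALDH1L2 −1.06 ± 0.18. It was above in SLC7A1 1.07 ± 0.11.

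Between the ZNF8 and CARHSP1 effects, 18 members differed, and the largest differences were NIBAN1 2.98 ± 0.24, PCK2 1.81 ± 0.12, SLC7A1 1.70 ± 0.10 and ALDH1L2 1.23 ± 0.16, with the ZNF8 effect above. The libraries labelled ZNF8 knockdown did not differ from their controls in ZNF8 beyond the threshold, and cell state and target differ together between the pairs, so what sets the differences cannot be told apart.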

How the results depend on the processing

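Counts of members were recomputed with DESeq2, RLE scaling, no low-count filter, all groups in one fit, a replicate block, GC and length trends removed, the replicate block with GC and length trends removed, and each library left out. All groups in one fit was not run for H9, whose table holds only the 2 groups compared. The counts stayed within 1.5 times of those reported except in the CARHSP1 comparison. There, 0 members fell under DESeq2, without the low-count filter, with GC and length trends removed and with the replicate block and GC and length trends removed, and leaving out a library gave 9 to 15 members higher and 0 to 1 lower. The cause was not tested. All genes called there numbered 3152, against 2045 without primed control replicate 1 and 2096 without CARHSP1 knockdown replicate 2.

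With a replicate block the counts of members higher and lower were 14 and 1 (CARHSP1), 22 and 1 (ZNF8), 31 and 1 (ZIC2), 13 and 9 (H9), 12 and 17 (naive against primed H1) and 9 and 18 (ectoderm). Same-numbered libraries deviated together with correlations of −0.108 to 0.13, not all over 0.1, so the numbers were not taken as pairs. Among named results, signs turned for ATF4 in the ZNF8 comparison (0.00068 with no filter, 0.038 with GC and length trends removed, 0.039 with the block as well, −0.043 to 0.017 on leaving out a library), for DDIT4 with ZIC2 (−0.067, −0.071 with the block, −0.025 to 0.25), and in ectoderm for ATF4 (0.16, 0.15 with the block) and PCK2 (0.076, 0.073 with the block), the last 2 through the removed trends. Of the members that did not pass, some turned sign under at least 1 alternative: 9 of 18 (CARHSP1), 2 of 9 (ZNF8), 0 of 2 (ZIC2), 6 of 13 (H9), 1 of 6 (naive against primed H1) and 4 of 7 (ectoderm), counted without the ATF4, DDIT4 and SLC38A2 results described by name. For differences between knockdown effects, all groups in one fit, GC and length trends removed and that correction with a replicate block were chosen after seeing the data. They gave 25 to 29 members differing for ZIC2 and CARHSP1, 17 to 23 for ZNF8 and ZIC2 and 17 to 19 for ZNF8 and CARHSP1. Depth limits NUPR1, ASNS and SLC1A4, which held few reads and went untested in some comparisons.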
